A study of Mus musculus with 6 samples.

Results

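Chemokines are small secreted proteins that direct the movement of leukocytes, and their receptors are G-protein-coupled receptors carried mostly by those leukocytes. The genes were taken from the expression table of a mouse kidney study by symbol, as all Ccl, Cxcl, Xcl and Cx3cl ligands, all Ccr, Cxcr, Xcr and Cx3cr receptors, the atypical receptors Ackr1 to Ackr4, and Ccrl2. This gave 61 of 22183 genes: 38 ligands, 18 signalling receptors and 5 atypical receptors. Whole-kidney messenger RNA was sequenced from mice treated with a plasmid for Wnt1 (3 libraries, called Wnt1 kidneys here) and from mice treated with the empty vector pcDNA3 (3 libraries, called control kidneys). The Wnt1 group is labelled as overexpressing the Wnt1 gene and the pcDNA3 group as control by genotype. The labels give neither the promoter on the plasmid, the route and time of delivery, nor the age, sex and strain of the mice, and all 6 libraries carry the same batch label. Separate animals are not stated for the libraries of a group, so the p-values below measure the spread between libraries, which may be technical.

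Inflammatory chemokines are made on demand by injured epithelium, endothelium, fibroblasts and macrophages, and they draw neutrophils, monocytes and activated lymphocytes out of the blood. Homeostatic chemokines are made continuously and place lymphocytes and resident cells in tissues. In the injured kidney, tubule cells are a known source of several inflammatory chemokines, and monocytes that enter along Ccl2 and its receptor Ccr2 are known contributors to later fibrosis.

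Expected counts summed to between 23585040 and 27218091 in Wnt1 kidneys and to between 24753191 and 26072455 in control kidneys. The transcript of Wnt1 itself had 0, 1 and 0 counts in Wnt1 replicates 1, 2 and 3 and 0 in each control library, so it did not check the labels. Markers of the labelled tissue were present in both groups: 14 proximal tubule markers summed to 5695 to 7231 CPM in Wnt1 kidneys and to 29089 to 29873 CPM in control kidneys. The 2 libraries numbered 3, which stand apart from the others on a principal component that held 14.7% of the variance, are treated as an alternative throughout. CPM values are counts relative to each library's total after that total was multiplied by a composition factor (TMM). Changes are log2 fold changes of Wnt1 over control kidneys, each followed after ± by a standard error, and adjusted p-values come from edgeR's quasi-likelihood test over 14432 genes.

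Chemokine transcripts were higher in Wnt1 kidneys across ligands and receptors, and none passed the test in the lower direction. Of the 61 genes, 34 rose, 11 were tested and not called at an adjusted p under 0.05, and 16 were too low to test. Among all genes tested, 41.1% were called, 22.4% higher and 18.7% lower. By role, 22 of 31 tested ligands, 11 of 11 tested signalling receptors and 1 of 3 tested atypical receptors rose. The median log2 fold change was 2.88 for the tested ligands and 2.06 for the tested signalling receptors, beside 0.05 for all genes tested. These counts cannot be read as a share of all members, because 21 of the 45 tested genes reached the count filter in all Wnt1 libraries but not in all control libraries and so entered only through the group in which they were high. Of the 24 that reached it in all control libraries as well, 15 rose and 9 were not called. Wnt1 and control libraries did not overlap for 36 tested genes with higher values in Wnt1 kidneys, a pattern seen in 28.2% of all genes tested, and for 1 with lower values (Ccrl2), the pattern of 25.3% of all genes tested.

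The scaling moved all genes together. With library totals alone, the median change of all genes tested was 0.47 and 6348 genes were called higher and 1288 lower, against 3239 and 2697 with TMM. The chemokine genes then gave 38 higher and 0 lower.

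Markers of most leukocyte types were higher in the same libraries. The counts below stand beside 22.4% called higher and 18.7% called lower over all genes tested. In these lists and those further below, some genes were under the count filter in control libraries and were tested only through the Wnt1 libraries. Foxp3, Il7r, Ncr1, Siglecf and Fpr1 are examples. The counts therefore cannot be read as shares of the lists. Of 17 tested macrophage and monocyte markers 15 rose and 1 fell, and the 18 in the list summed to 1994 to 2380 CPM in Wnt1 kidneys and to 327 to 383 CPM in control kidneys. Neutrophil markers were scarce, with 13 genes summing to 14.1 to 18.8 CPM in Wnt1 kidneys and to 1.77 to 2.39 CPM in control kidneys; Camp had no count in any library, Ngp and Cebpe none in control kidneys, and Mpo and Elane none in Wnt1 kidneys. All 20 T and NK cell markers were tested and 17 rose, with sums of 42.3 to 55.4 CPM in Wnt1 kidneys and 13.9 to 18.4 CPM in control kidneys. Of 8 tested B and plasma cell markers 6 rose, with sums over 14 genes of 65.9 to 73.9 CPM in Wnt1 kidneys and 12.8 to 16.6 CPM in control kidneys. Dendritic cell markers rose for 9 of 10, with sums of 149 to 207 CPM in Wnt1 kidneys and 69.0 to 84.8 CPM in control kidneys. The 9 mast cell, basophil and eosinophil markers summed to 24.9 to 28.6 CPM in Wnt1 kidneys and 28.0 to 31.7 CPM in control kidneys. Most of that sum was Kit, which averaged 26.0 CPM in Wnt1 kidneys and 29.5 CPM in control kidneys and was not called. Of the 2 that could be tested 1 rose, Siglecf, which averaged 0.473 CPM in Wnt1 kidneys and 0.0153 CPM in control kidneys. In whole tissue, more cells of a type and more RNA per cell cannot be told apart. Of non-leukocyte lists, 8 of 8 tubule injury markers and 10 of 12 fibroblast and mural markers rose (1 fell). In the other direction, 13 of 14 proximal tubule markers, 7 of 14 markers of the loop, distal tubule and collecting duct, 3 of 5 podocyte markers and 7 of 14 endothelial markers fell (1 endothelial marker rose). The part of these cells in the chemokine results was not tested.

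Expressed per transcript length as the authors' FPKM, the ligands together made up a larger pool in Wnt1 kidneys, of which Cxcl12 held a smaller share. All 38 ligands summed to 510, 570 and 608 FPKM in Wnt1 replicates 1, 2 and 3 and to 204, 191 and 216 FPKM in control replicates 1, 2 and 3. Every Wnt1 library stood above every control library, and the means differed 2.76-fold (exact permutation test, two-sided, p = 0.1, the smallest that 3 against 3 libraries allow). The 23 receptors summed to 81.5, 98.5 and 76.3 FPKM in Wnt1 kidneys and to 28.5, 24.8 and 21 FPKM in control kidneys, a 3.45-fold difference without overlap (exact permutation p = 0.1). Leaving out any library kept the fold between 2.65 and 2.89 for ligands and between 3.18 and 3.73 for receptors. FPKM carries no composition factor. The median change on log2(FPKM + 1) was 0.36 over the 12520 genes that passed an FPKM filter and 0.22 over 17996 genes without that filter.

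Cxcl12, the stromal ligand of Cxcr4, held 44.1% of the summed ligand FPKM in control kidneys (42.5% to 46.2% in single libraries) and 15% in Wnt1 kidneys (11.4% to 18.5%). In Wnt1 kidneys the top of the order was Cxcl16 at 102 ± 9.22 FPKM, Cxcl12 at 84.5 ± 25.1 FPKM and Cx3cl1 at 78.8 ± 14 FPKM (SD, n = 3), and these neighbours did not differ beyond their spread. Ccl6 followed at 54.8 ± 8.65 FPKM and Cxcl14 at 36.2 ± 8.42 FPKM. In control kidneys Cxcl12 stood alone at 89.9 ± 5.47 FPKM, ahead of Cx3cl1 at 30.5 ± 2.24 FPKM and Cxcl16 at 23.9 ± 2.47 FPKM. Among receptors, the scavenger Ackr3 led both groups, at 27.1 ± 2.92 FPKM in Wnt1 kidneys and 13.7 ± 2.57 FPKM in control kidneys. Behind it came Cx3cr1 at 16.6 ± 4.13 FPKM and Ccr2 at 12.4 ± 5.52 FPKM in Wnt1 kidneys, which did not differ beyond their spread, whereas Ccrl2 at 3.41 ± 0.361 FPKM and Cxcr4 at 2.40 ± 0.502 FPKM held those places in control kidneys.

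**Figure D1:**
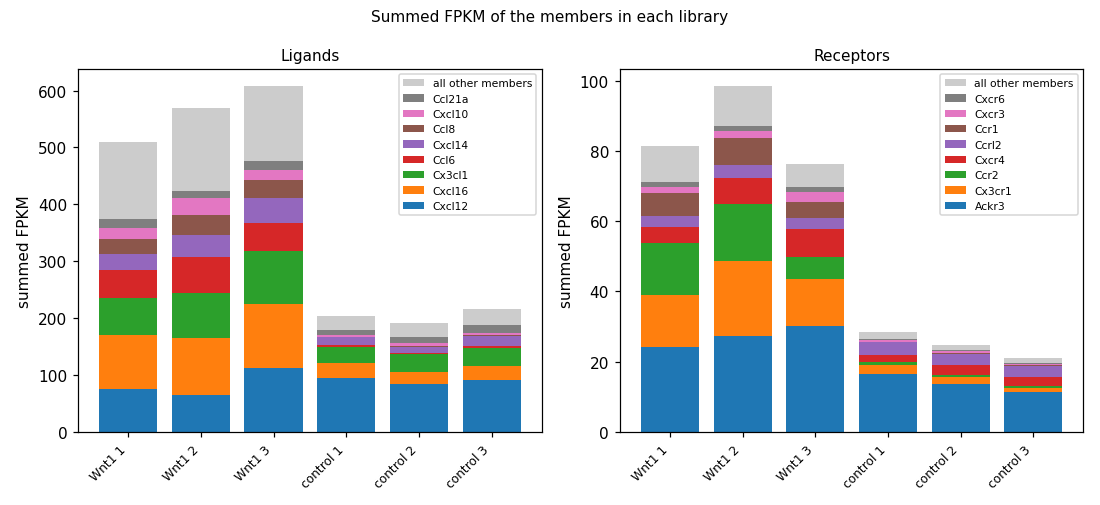
Summed FPKM (y axis) of the 38 ligands (left panel) and the 23 receptors (right panel) in each of the 6 libraries (x axis), stacked by gene, with 8 abundant genes in colour and all others together in grey. Wnt1 libraries reach 510 to 608 FPKM for ligands and 76.3 to 98.5 FPKM for receptors, and Cxcl12 and Ackr3 are the lowest blocks of each stack.

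Among genes selected by symbol, the CXC ligands that attract neutrophils through Cxcr2 were close to absent in control kidneys and measurable in Wnt1 kidneys. Cxcl5 had 6.82, 6.83 and 4.44 CPM in Wnt1 replicates 1, 2 and 3 and 0, 0.0443 and 0 CPM in control replicates 1, 2 and 3. Cxcl2 had 4.50, 3.75 and 3.76 CPM in Wnt1 kidneys and 0.0460, 0 and 0 CPM in control kidneys. Each thus rested on 1 control count, and the ratio of scaled counts was 404 for Cxcl5 (exact 95% interval 72.1 to 15971, counting error only) and 267 for Cxcl2 (47.6 to 10566), with adjusted p-values of 5.81e-05 and 6.28e-05. Cxcl1, the neutrophil attractant also called KC, stood at 12.2, 8.0 and 6.30 CPM in Wnt1 kidneys and at 0.138, 0.532 and 0.502 CPM in control kidneys, a log2 fold change of 4.48 ± 0.45 (adjusted p = 0.000225). For these ligands the groups were far apart in every library, and Wnt1 replicate 3 was the lowest Wnt1 library for Cxcl5 and Cxcl1. Cxcl3 was scarcer, at 0.602, 0.602 and 0.417 CPM in Wnt1 kidneys and 0, 0 and 0.137 CPM in control kidneys (ratio 12.0, 95% interval 3.88 to 60.5; adjusted p = 0.011). The fitted log2 fold changes of genes this low depend on single control counts: 8.24 for Cxcl5 became 10.33 without control replicate 2, 7.65 for Cxcl2 became 9.73 without control replicate 1, and 3.45 for Cxcl3 became 6.87 without control replicate 3.

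Cxcr2, the receptor for these ligands on neutrophils, had 1.68, 1.70 and 0.683 CPM in Wnt1 kidneys and 0.138, 0.0443 and 0.0456 CPM in control kidneys. It rose by 4.08 ± 0.63 (adjusted p = 0.00138; 4.85 without control replicate 1), with Wnt1 replicate 3 the lowest of its group and still above every control library. The neutrophil marker S100a9 averaged 3.67 CPM in Wnt1 kidneys and 0.120 CPM in control kidneys, while Ly6g averaged 0.0106 CPM in Wnt1 kidneys and 0.0153 CPM in control kidneys. Cxcr1 had 1 count in all Wnt1 libraries together and 1 in all control libraries together. Cxcl15, a lung-type CXC ligand, had at most 2 counts in any library.

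The stretch just before the transcription start of these genes is shown because Cxcl1, Cxcl2 and Cxcl3 rose and lie in one cluster on chromosome 5, and because promoters of inflammatory chemokines are textbook targets of NF-kappaB. The sequences come from RefSeq (GRCm38.p6) and cover the 250 bases before the start, 5′ to 3′ on the gene's strand. Capitals mark matches to the NF-kappaB consensus on either strand, and adjoining matches that overlap share 1 run of capitals. Each risen ligand shown, Ccl20 and Cxcl10 among them, holds a match. The lines therefore do not represent all ligands that rose, of which 6 of 15 with a window held a match. The last line, Ccl21a, is a homeostatic ligand whose level did not differ between groups beyond its spread.
Cxcl1, chr5:90890995-90891244, plus strand: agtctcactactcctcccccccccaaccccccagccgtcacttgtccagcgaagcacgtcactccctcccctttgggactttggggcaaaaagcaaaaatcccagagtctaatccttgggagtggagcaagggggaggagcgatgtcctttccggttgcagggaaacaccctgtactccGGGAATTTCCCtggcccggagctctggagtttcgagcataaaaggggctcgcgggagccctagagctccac
Cxcl2, chr5:90903649-90903898, plus strand: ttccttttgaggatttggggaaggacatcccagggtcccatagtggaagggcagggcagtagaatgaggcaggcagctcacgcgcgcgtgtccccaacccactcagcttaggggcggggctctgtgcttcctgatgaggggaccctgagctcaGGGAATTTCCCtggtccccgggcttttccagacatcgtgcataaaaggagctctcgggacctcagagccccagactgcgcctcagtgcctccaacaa
Cxcl3, chr5:90785851-90786100, plus strand: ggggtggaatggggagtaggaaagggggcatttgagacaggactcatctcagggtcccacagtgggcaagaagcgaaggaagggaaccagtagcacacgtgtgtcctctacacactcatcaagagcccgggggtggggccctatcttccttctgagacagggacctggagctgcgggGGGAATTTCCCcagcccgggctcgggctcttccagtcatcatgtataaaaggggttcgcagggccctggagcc
Ccl20, chr1:83116516-83116765, plus strand: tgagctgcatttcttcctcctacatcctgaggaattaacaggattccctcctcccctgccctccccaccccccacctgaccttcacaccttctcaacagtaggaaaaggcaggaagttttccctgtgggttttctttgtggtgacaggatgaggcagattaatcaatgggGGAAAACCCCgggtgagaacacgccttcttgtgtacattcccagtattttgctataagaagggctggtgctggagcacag
Cxcl10, chr5:92348890-92349139, minus strand: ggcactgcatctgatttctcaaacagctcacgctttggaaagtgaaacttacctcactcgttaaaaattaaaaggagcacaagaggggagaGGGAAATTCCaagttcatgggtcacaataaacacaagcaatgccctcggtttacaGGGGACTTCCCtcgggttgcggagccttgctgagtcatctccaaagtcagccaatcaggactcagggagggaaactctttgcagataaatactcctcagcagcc
Ccl21a, chr4:42773992-42774241, minus strand: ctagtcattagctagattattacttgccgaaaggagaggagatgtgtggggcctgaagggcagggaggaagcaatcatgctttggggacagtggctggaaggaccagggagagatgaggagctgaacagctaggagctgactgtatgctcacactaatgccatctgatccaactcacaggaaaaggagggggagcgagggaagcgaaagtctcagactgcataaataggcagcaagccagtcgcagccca

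The nearest match began 70 bases before the start in Cxcl1, 96 in Cxcl2, 72 in Cxcl3, 80 in Ccl20 and 103 in Cxcl10, and none was found in Ccl21a. Promoter windows at the annotated gene were at hand for 46 of the 61 genes, and a gene with several starts counted if any of its windows matched. Of these, 12 held the consensus (26.1%), against 8.23% of 27024 genes with a window of the same length. Among ligands with a window, it was found in 6 of 15 that rose (Ccl20, Ccl9, Cxcl1, Cxcl10, Cxcl2 and Cxcl3) and in 0 of 7 that were tested and not called. Of 10 receptors that rose it was found in 1, Ccr1. It was also found in Ackr2 and Ccrl2, which were tested and not called, and in the untested Ccl1, Ccr3 and Ccr6. The shares of risen and uncalled ligands are not comparable. Ccl20, Cxcl1, Cxcl2 and Cxcl3 passed the count filter through the Wnt1 libraries alone, and none of the uncalled ligands with a window did. Cxcl1, Cxcl2 and Cxcl3 also share the same marked stretch and are not independent of each other. Other motifs were searched in the same windows on both strands. The interferon response element was in 3 of 46 chemokine genes (Ccl19, Cxcl10 and Cxcl14; 6.52%, against 3.46% of all genes), the AP-1 site TGANTCA in 6 (13%, against 7.82%) and the TCF/LEF site CTTTGAT in 1, that of Cxcl12 (2.17%, against 3.72%). A match is a stretch of letters and not a shown binding site, and no window tests whether a factor acts on these genes.

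The CC ligands that draw monocytes through Ccr2 rose with their receptor. Ccl2, the monocyte chemoattractant MCP-1, had 11.6, 11.2 and 9.33 CPM in Wnt1 replicates 1, 2 and 3 and 0.644, 0.665 and 0.411 CPM in control replicates 1, 2 and 3, a log2 fold change of 4.21 ± 0.25 (adjusted p = 3.37e-05). Its neighbour Ccl7 had 4.82, 6.16 and 5.08 CPM in Wnt1 kidneys and 0, 0.133 and 0.183 CPM in control kidneys (5.60 ± 0.52; adjusted p = 0.000157; 6.30 without control replicate 3). Ccl12, a ligand of Ccr2 found in the mouse, had 6.50, 7.54 and 6.68 CPM in Wnt1 kidneys and 0.276, 0.443 and 0.548 CPM in control kidneys (4.01 ± 0.28; adjusted p = 6e-05). Within each group these 3 ligands varied little beside the gap between groups. Ccr2, the receptor of inflammatory monocytes, had 45, 50.1 and 19.3 CPM in Wnt1 kidneys and 3.82, 2.53 and 1.60 CPM in control kidneys (3.85 ± 0.45; adjusted p = 0.000494). Wnt1 replicate 3 held less than the other Wnt1 libraries but more than any control library.

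Ccl8, which in the mouse acts on Ccr8, stood at 11.5, 15.4 and 14.8 CPM in Wnt1 kidneys and at 0.138, 0.576 and 0.411 CPM in control kidneys (5.19 ± 0.38; adjusted p = 6.77e-05). Its receptor Ccr8 was too low to test, with 3, 7 and 2 counts in Wnt1 kidneys and 1, 0 and 0 in control kidneys. A ligand far above the filter thus stood beside a receptor near the limit of detection.

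Ligands of Ccr1, a receptor of monocytes, macrophages and T cells, included Ccl6, the most abundant CC ligand of Wnt1 kidneys per transcript length (54.8 ± 8.65 FPKM, SD, n = 3). Ccl6, which is known from rodents, had 62.4, 78.1 and 63.7 CPM in Wnt1 kidneys and 5.47, 4.16 and 6.71 CPM in control kidneys (3.64 ± 0.21; adjusted p = 3.12e-05). Ccl9, also a ligand known from rodents, had 39.0, 44.3 and 36.8 CPM in Wnt1 kidneys and 1.84, 1.06 and 2.01 CPM in control kidneys (4.61 ± 0.25; adjusted p = 2.68e-05, the smallest of all chemokine genes). Every Wnt1 library of either gene held several times the level of the highest control library. Ccl5, the T cell and macrophage product RANTES, had 3.93, 6.23 and 7.70 CPM in Wnt1 kidneys and 0.736, 0.709 and 1.1 CPM in control kidneys (2.81 ± 0.34; adjusted p = 0.000471). Ccl3, the macrophage inflammatory protein 1-alpha, was low, at 0.919, 0.850 and 0.493 CPM in Wnt1 kidneys and 0.0460, 0.0443 and 0.0913 CPM in control kidneys (3.55 ± 0.55; adjusted p = 0.00139; 4.15 without both libraries numbered 3). Ccl4, its beta counterpart, was not called: it had 0.349, 0.743 and 0.948 CPM in Wnt1 kidneys and 0.276, 0.399 and 0.0913 CPM in control kidneys, which overlapped (1.38 ± 0.58; adjusted p = 0.0926; over the alternatives 0.0345 to 0.332).

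Ccr1 had the largest fitted rise of the receptors, at 16.3, 18.6 and 11.4 CPM in Wnt1 kidneys and 0.276, 0.709 and 0.502 CPM in control kidneys (4.94 ± 0.35; adjusted p = 6e-05). As with Ccr2 and Cxcr2, Wnt1 replicate 3 was the lowest Wnt1 library and did not reach the control range. Ccr3, the eotaxin receptor of eosinophils, had 4, 7 and 2 counts in Wnt1 kidneys and none in control kidneys. Its ligand Ccl11, eotaxin, rose by 2.88 ± 0.47 (adjusted p = 0.00195; 3.48 without control replicate 2), at 1.14, 1.03 and 0.910 CPM in Wnt1 kidneys and 0.0460, 0.222 and 0.137 CPM in control kidneys. Ccl24 had at most 10 counts in any library, and Ccl26 had none.

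**Figure D2:**
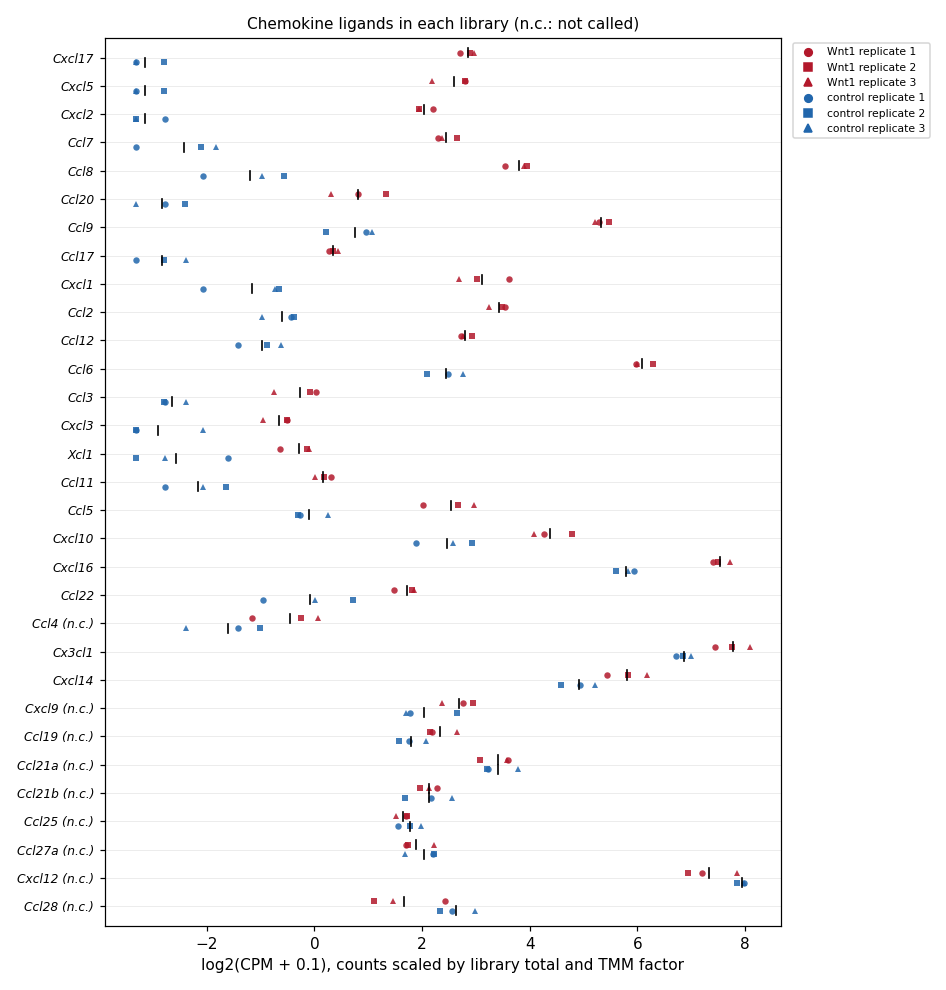
Level of each tested ligand in each library as log2(CPM + 0.1) on the x axis, with genes down the page in order of their log2 fold change, Wnt1 libraries (red) above control libraries (blue), and a black tick at each group's mean of the plotted values. Genes marked n.c. were not called; the groups are widest apart for Cxcl17, Cxcl5 and Cxcl2, whose control libraries hold 0 or 1 count.

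The ligands that exist as membrane-anchored proteins, Cx3cl1 and Cxcl16, were abundant in both groups and rose with their receptors. Cxcl16 had 170, 181 and 211 CPM in Wnt1 replicates 1, 2 and 3 and 61.2, 48.8 and 56.5 CPM in control replicates 1, 2 and 3 (1.75 ± 0.15; adjusted p = 0.000109). Its receptor Cxcr6, carried by effector T and NK cells, had 2.35, 2.2 and 2.31 CPM in Wnt1 kidneys and 0.460, 0.576 and 0.593 CPM in control kidneys (2.06 ± 0.27; adjusted p = 0.000637). Both were tight within groups. Cx3cl1, fractalkine, had 175, 217 and 274 CPM in Wnt1 kidneys and 105, 116 and 128 CPM in control kidneys, a smaller change of 0.93 ± 0.18 (adjusted p = 0.00459). Cx3cr1, its receptor on monocytes and resident macrophages, had 43.7, 59.7 and 41.5 CPM in Wnt1 kidneys and 9.66, 8.20 and 5.43 CPM in control kidneys (2.64 ± 0.25; adjusted p = 0.00017). Of the proteases that release both ligands from the membrane, Adam17 rose by 0.77 ± 0.20 (adjusted p = 0.018). Adam10 had a similar fitted change of 0.79 ± 0.30 and was not called (adjusted p = 0.0709).

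Among ligands of Cxcr3, the receptor of activated T and NK cells, Cxcl10 rose and Cxcl9 was not called. Cxcl10, an interferon-induced ligand, had 19.0, 27.5 and 16.8 CPM in Wnt1 kidneys and 3.59, 7.49 and 5.89 CPM in control kidneys (1.90 ± 0.30; adjusted p = 0.00198). Cxcl9, induced by interferon-gamma, had 6.66, 7.65 and 5.05 CPM in Wnt1 kidneys and 3.31, 6.20 and 3.15 CPM in control kidneys (0.61 ± 0.31; adjusted p = 0.152; over the alternatives 0.0205 to 0.366). Control replicate 2 held the highest control value of both genes and lay inside the Wnt1 range of Cxcl9. Cxcr3 itself had 2.41, 2.69 and 4.67 CPM in Wnt1 kidneys and 1.24, 0.975 and 0.867 CPM in control kidneys (1.66 ± 0.34; adjusted p = 0.00562).

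Xcl1, lymphotactin, had 0.539, 0.814 and 0.835 CPM in Wnt1 kidneys and 0.230, 0 and 0.0456 CPM in control kidneys (2.93 ± 0.74; adjusted p = 0.0133). Control replicate 1 set the size of that change and control replicate 3 its call: leaving out replicate 1 gave a log2 fold change of 4.79, and leaving out replicate 3 an adjusted p of 0.057 (over the alternatives 0.000911 to 0.057). Xcr1, its receptor on cross-presenting dendritic cells, rose by 1.72 ± 0.30 (adjusted p = 0.00275), at 2.54, 3.22 and 2.05 CPM in Wnt1 kidneys and 0.598, 0.886 and 0.867 CPM in control kidneys. The ligands of Ccr4 rose as well: Ccl17 stood at 1.11, 1.17 and 1.25 CPM in Wnt1 kidneys and 0, 0.0443 and 0.0913 CPM in control kidneys (ratio 25.9, 95% interval 8.61 to 128; adjusted p = 0.000551). Its fitted log2 fold change of 4.56 became 5.51 without control replicate 3. Ccl22 had 2.69, 3.43 and 3.49 CPM in Wnt1 kidneys and 0.414, 1.55 and 0.913 CPM in control kidneys (1.73 ± 0.42; adjusted p = 0.0121). Ccr4, a receptor of regulatory and type 2 helper T cells, was too low to test, with 16, 12 and 8 counts in Wnt1 kidneys and 1, 0 and 0 in control kidneys (ratio 27.7, 95% interval 4.66 to 1123).

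Ccl20, which attracts Ccr6-bearing T and dendritic cells, had 1.65, 2.41 and 1.14 CPM in Wnt1 kidneys and 0.0460, 0.0886 and 0 CPM in control kidneys (ratio 38.4, 95% interval 12.9 to 188; adjusted p = 0.000585; fitted log2 fold change 5.11, and 6.04 without control replicate 2). Ccr6 had 6, 3 and 3 counts in Wnt1 kidneys and 0, 2 and 1 in control kidneys and was not tested. The ligand was therefore measured without a testable receptor. Cxcl17, a mucosal product whose receptor is disputed, had the largest fitted change of all chemokine genes: 6.44, 7.29 and 7.66 CPM in Wnt1 kidneys against 0, 0.0443 and 0 CPM in control kidneys (ratio 470, 95% interval 84.0 to 18582; adjusted p = 3.16e-05). Its fitted log2 fold change of 8.48 became 10.55 without control replicate 2, the library with the single count. Cxcl14, an epithelial and stromal ligand, rose by 0.91 ± 0.23 (adjusted p = 0.0152), at 43.0, 57.0 and 72.0 CPM in Wnt1 kidneys and 30.6, 23.9 and 37.2 CPM in control kidneys.

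The homeostatic ligands Cxcl12, Ccl19, Ccl21a, Ccl21b, Ccl25, Ccl27a and Ccl28 were not called in either direction, while the receptors Cxcr4, Ccr7 and Ccr9 rose. Not every homeostatic ligand was uncalled: Cxcl14, often classed with them, rose by 0.91 ± 0.23 (adjusted p = 0.0152). Cxcl12 had 148, 123 and 231 CPM in Wnt1 replicates 1, 2 and 3 and 253, 230 and 252 CPM in control replicates 1, 2 and 3 (-0.55 ± 0.23; adjusted p = 0.0881). Wnt1 replicate 3 lay within the control range and replicates 1 and 2 below it: without Wnt1 replicate 3 the adjusted p was 0.00106, and over the alternatives it was 0.000452 to 0.655. With library totals the change was -0.13. Cxcr4, its receptor on leukocytes and progenitor cells, rose by 1.16 ± 0.29 (adjusted p = 0.0133), with 6.12, 9.45 and 10.6 CPM in Wnt1 kidneys and 2.80, 4.03 and 4.88 CPM in control kidneys.

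Ccl21a, a lymphatic ligand of Ccr7, had 11.9, 8.36 and 11.9 CPM in Wnt1 kidneys and 9.20, 9.13 and 13.7 CPM in control kidneys (0.01 ± 0.23; adjusted p = 0.987). Ccl21b gave 4.76, 3.79 and 4.29 CPM in Wnt1 kidneys and 4.37, 3.10 and 5.80 CPM in control kidneys (-0.05 ± 0.26; adjusted p = 0.903). These genes have near-identical copies, and reads shared between copies could be assigned to either, so their separate levels are uncertain. Ccl19, the other Ccr7 ligand, had 4.47, 4.35 and 6.18 CPM in Wnt1 kidneys and 3.26, 2.88 and 4.11 CPM in control kidneys, without overlap (0.55 ± 0.24; adjusted p = 0.103; over the alternatives 0.00447 to 0.2). Ccr7, the receptor of naive T cells and migrating dendritic cells, rose by 1.33 ± 0.34 (adjusted p = 0.0157), at 1.59, 1.59 and 2.09 CPM in Wnt1 kidneys and 0.414, 0.798 and 0.867 CPM in control kidneys.

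Ccl25, the gut and thymus ligand of Ccr9, averaged 3.04 ± 0.236 CPM in Wnt1 kidneys and 3.34 ± 0.492 CPM in control kidneys (-0.13 ± 0.21; adjusted p = 0.658). Ccr9 had 0.793, 0.92 and 0.569 CPM in Wnt1 kidneys and 0.322, 0.222 and 0.183 CPM in control kidneys and was called at 1.64 ± 0.40 (adjusted p = 0.0124). That call was lost with DESeq2 and without Wnt1 replicate 2, control replicate 2 or control replicate 3 (adjusted p over the alternatives 0.00203 to 0.0545). The epithelial Ccr10 ligands Ccl27a and Ccl28 were not called: Ccl27a averaged 3.66 ± 0.774 CPM in Wnt1 kidneys and 4.06 ± 0.827 CPM in control kidneys (-0.15 ± 0.25; adjusted p = 0.667), and Ccl28 averaged 3.32 ± 1.71 CPM in Wnt1 kidneys and 6.17 ± 1.48 CPM in control kidneys (-0.89 ± 0.37; adjusted p = 0.091). Without Wnt1 replicate 1, the highest Wnt1 library of Ccl28, its change was -1.39 and it was called lower (adjusted p = 0.0132; over the alternatives 0.0132 to 0.357). Ccr10 had at most 10 counts in any library. The B cell ligand Cxcl13 had 7, 16 and 0 counts in Wnt1 kidneys and 2, 3 and 2 in control kidneys, and its receptor Cxcr5 had 2, 11 and 3 in Wnt1 kidneys and 4, 2 and 9 in control kidneys; neither was tested.

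Atypical receptors take up or present chemokines without classical G-protein signalling. Ackr3, which removes Cxcl12, had 62.7, 67.6 and 79.4 CPM in Wnt1 kidneys and 55.4, 46.0 and 40.0 CPM in control kidneys, without overlap (0.57 ± 0.16; adjusted p = 0.025; 0.0551 without Wnt1 replicate 2, and 0.00188 to 0.0551 over the alternatives). Ackr2, a scavenger of inflammatory CC ligands, had 0.697, 0.637 and 0.531 CPM in Wnt1 kidneys and 0.368, 0.443 and 0.365 CPM in control kidneys (0.66 ± 0.33; adjusted p = 0.149; over the alternatives 0.026 to 0.457). Ccrl2, which presents the attractant chemerin, stood the other way, at 3.96, 4.71 and 4.44 CPM in Wnt1 kidneys and 6.62, 5.67 and 6.39 CPM in control kidneys (-0.51 ± 0.18; adjusted p = 0.053). It was called lower in 5 alternatives, among them the fit without Wnt1 replicate 3, with an adjusted p of 0.0162 to 0.741 over all of them. Ackr1, the venular Duffy receptor, had 6, 4 and 13 counts in Wnt1 kidneys and 0, 2 and 2 in control kidneys. Ackr4, which removes Ccr7 ligands, had 8, 11 and 5 counts in Wnt1 kidneys and 6, 4 and 7 in control kidneys.

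**Figure D3:**
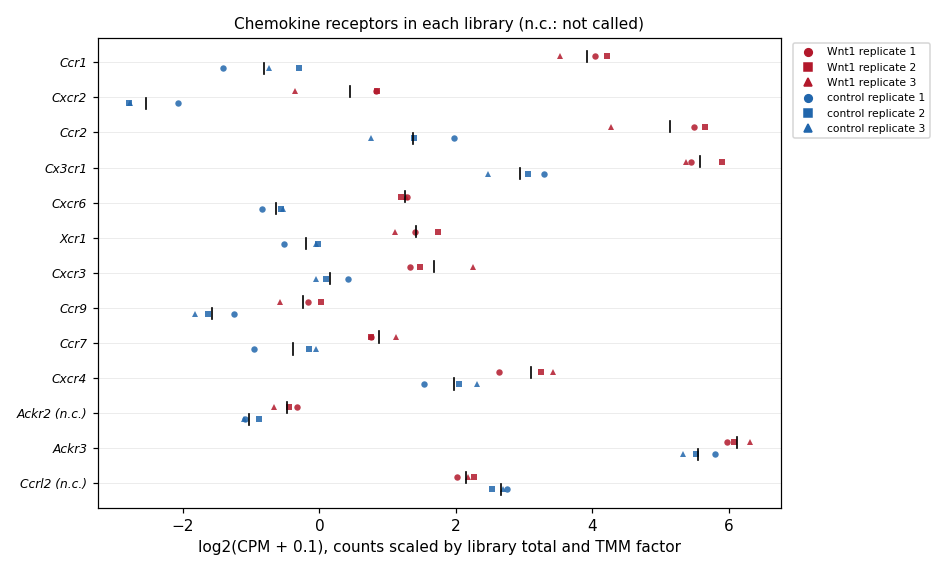
Level of tested receptors in each library as log2(CPM + 0.1) on the x axis, with genes down the page in order of their log2 fold change, Wnt1 libraries (red) above control libraries (blue), and a black tick at each group's mean of the plotted values. Wnt1 replicate 3 (red triangle) is the lowest Wnt1 library for Ccr1, Cxcr2, Ccr2, Cx3cr1, Xcr1, Ccr9 and Ackr2 and the highest for Cxcr3, Cxcr4, Ccr7 and Ackr3.

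Wnt1 replicate 3 thus stood at opposite ends for different receptors. In the same library the macrophage and monocyte markers summed to 2360 CPM, against 1994 and 2380 CPM in Wnt1 replicates 1 and 2, the neutrophil markers to 14.1 CPM, against 16.7 and 18.8 CPM, and the T and NK cell markers to 55.4 CPM, against 42.7 and 42.3 CPM. Single macrophage and monocyte markers went both ways, in examples chosen after their values were seen. In Wnt1 replicates 1, 2 and 3, Mrc1 had 75.8, 101 and 36.2 CPM and Msr1 11.3, 12.6 and 4.40 CPM. Lyz2 had 806, 929 and 903 CPM and Adgre1 63.0, 76.3 and 80.2 CPM. With both libraries numbered 3 left out, 35 chemokine genes were higher and 2 lower. Over all 14563 genes tested in that fit, 4664 were higher and 4432 lower.

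Set side by side, ligands and receptors could be compared in 22 textbook pairs in which both were tested. Both rose in 15 pairs, and the receptor rose beside a ligand that was not called in 7. Over all single genes tested, 22.4% were called higher. That all 11 receptors in these pairs rose is set by the pair list, which holds no tested pair for Ackr2 and Ccrl2, the tested receptors that were not called. In addition, 4 of these receptors (Ccr1, Ccr7, Ccr9 and Cxcr2) and 9 of the 21 ligands passed the count filter through the Wnt1 libraries alone. The 7 pairs with an uncalled ligand were Ccl19, Ccl21a and Ccl21b with Ccr7, Ccl25 with Ccr9, Cxcl9 with Cxcr3, and Cxcl12 with Cxcr4 and with Ackr3. The ligand's log2 fold change was the larger in 8 of the 22 pairs, all of them with Ccr2, Cxcr2, Cxcr3 or Xcr1. Another 19 pairs could not be compared because at least 1 partner was too low to test, and pairs that share a gene are not independent of each other.

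**Figure D4:**
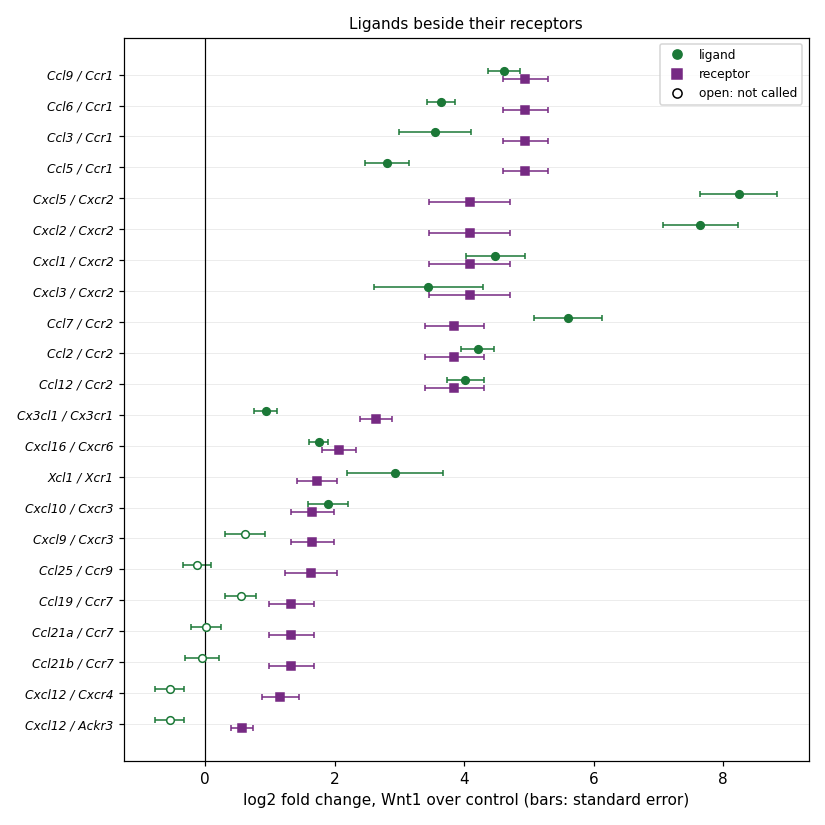
Log2 fold change of Wnt1 over control (x axis) for the ligand (green circle) and the receptor (purple square) of each of the 22 pairs with both genes tested, with standard errors as bars and open symbols for genes not called. The open symbols are ligands of Ccr7, Ccr9, Cxcr3, Cxcr4 and Ackr3.

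Most of the genes lie in tandem clusters, a feature the selection did not use. With gaps of at most 1000 kb, 39 of the genes fell into 10 clusters in GRCm38. The cluster around Ccl2 (chr11:82035571-82305690; Ccl2, Ccl7, Ccl11, Ccl12, Ccl8 and Ccl1) had 5 of 5 tested genes higher, with log2 fold changes of 2.88 to 5.60. The second chromosome 11 cluster (chr11:83525778-83664683; Ccl5, Ccl9, Ccl6, Ccl3 and Ccl4) had 4 of 5 higher, Ccl4 being the one not called. On chromosome 5, the cluster of Cxcr2 ligands selected by symbol (chr5:90759360-90905938; Cxcl5, Cxcl3, Cxcl15, Cxcl1 and Cxcl2) had 4 of 4 tested genes higher, at 3.45 to 8.24. Ppbp, a Cxcr2 ligand that the symbol rule left out, is not counted here and was not called (edgeR adjusted p = 0.325). The chromosome 9 receptor cluster (chr9:123678439-124113557; Ccr9, Cxcr6, Xcr1, Ccr1, Ccr3 and Ccr2) had 5 of 5 tested genes higher, at 1.64 to 4.94. The chromosome 4 cluster of homeostatic ligands (chr4:41769467-42773993; Ccl27a, Ccl21d, Ccl21b, Ccl27b, Ccl19 and Ccl21a) had 0 of 4 called, at -0.15 to 0.55. These counts are not comparable between clusters. All 5 tested genes around Ccl2 and all 4 in the chromosome 5 cluster passed the count filter through the Wnt1 libraries alone. The same held for 2 of 5 in the second chromosome 11 cluster and 2 of 5 in the chromosome 9 cluster, against 0 of 4 on chromosome 4. The cluster counts stand beside 22.4% called higher and 18.7% called lower over all genes tested. The difference between clusters was not tested. Ccl21d and Ccl27b, near-copies of their neighbours, had no count in any library.

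**Figure D5:**
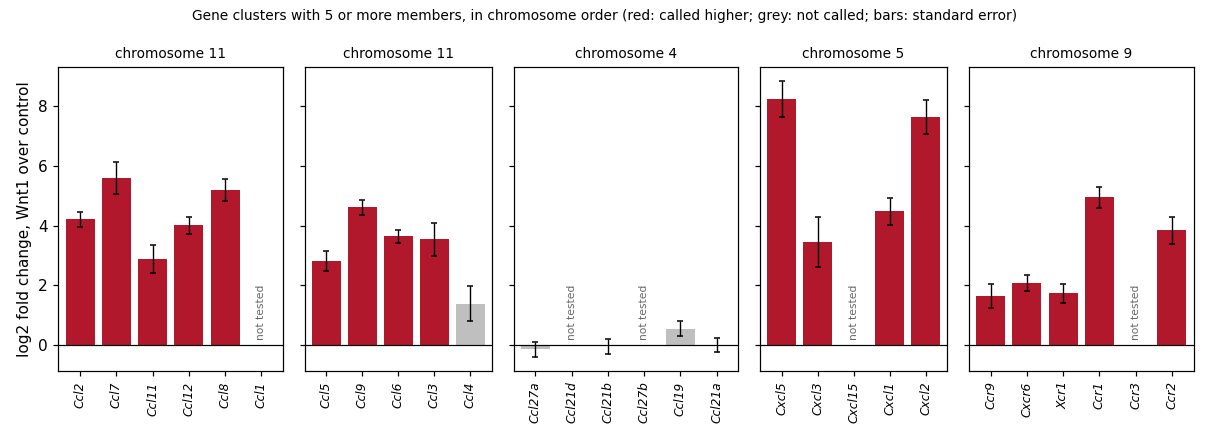
Log2 fold change of Wnt1 over control (y axis, bars with standard errors) for the genes of the 5 clusters that hold at least 5 members, in the order in which they lie on the chromosome. Both chromosome 11 clusters, the chromosome 5 cluster and the chromosome 9 cluster show tall red bars for called genes, and the chromosome 4 cluster stays near 0.

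Genes that carry the signal inside the cell were called in part. Of 54 tested genes of chemokine signal transduction, 31 rose, 1 fell and 22 were not called, beside 22.4% higher and 18.7% lower over all genes tested. Their median log2 fold change was 0.63, beside 0.05 for all genes tested. Those that rose included leukocyte-restricted components: Dock2, the Rac activator of migrating leukocytes (2.47 ± 0.15; adjusted p = 3.35e-05), Ncf1, a subunit of the phagocyte oxidase (2.78 ± 0.18; 4.42e-05), and Vav1, an exchange factor of blood cells (2.58 ± 0.21; adjusted p = 0.000107). Rgs10, which shortens G-protein signals, rose as well (2.38 ± 0.17; adjusted p = 6.45e-05). The member that fell was the focal adhesion kinase relative Ptk2b (-0.79 ± 0.13; adjusted p = 0.00214). Of the broadly expressed components, some rose, among them the transcription factor Stat3 (1.17 ± 0.12; adjusted p = 0.000225), the inhibitory G-protein subunit Gnai2 (0.71 ± 0.13; 0.00385), Gnb1, Akt1, Rap1b and Shc1, and others, such as Rac1, Cdc42, Rhoa, Gnai3 and Arrb1, were not called; these examples were chosen after their values were seen. Among genes that bind, trim or anchor chemokines, 9 of 22 tested rose and 3 fell, beside 22.4% higher and 18.7% lower over all genes tested, with a median log2 fold change of 0.30. The macrophage elastase Mmp12, which clips chemokines, had 33.4 ± 6.45 CPM in Wnt1 kidneys and 0.876 ± 0.0356 CPM in control kidneys (5.25 ± 0.22; adjusted p = 1.49e-05). The heparan sulfate proteoglycan Sdc1 rose by 1.66 ± 0.19 (adjusted p = 0.000345), and Sdc2 (-0.54 ± 0.14; adjusted p = 0.0156) and the aminopeptidase Anpep (-0.75 ± 0.15; adjusted p = 0.00469) fell. The peptidase Dpp4, which inactivates several chemokines, was measured at 0.09 (adjusted p = 0.86).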

How the data were processed

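Per the labels' protocols, oligo(dT)-enriched kidney RNA was sequenced on an Illumina instrument. The submitters' processing notes list RSEM, HISAT2, StringTie 1.3.1, fastp 0.18.0 and Bowtie2 2.2.8 and the mm10 build, without stating roles, annotation or strand use. The authors deposited an expected count per gene and library, 9.02% of which were not whole (tolerance 1e-06) and were rounded here, and an FPKM value per gene and library. No value column belonged to another sample.

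edgeR 4.0.16, run in R 4.3.3, tested the rounded counts (filterByExpr, TMM, robust quasi-likelihood test, Benjamini-Hochberg adjusted over all 14432 tested genes), checked on simulated data. Standard errors derive from the coefficient and its F statistic. Genes with 1 to 3 control counts have a ratio with an exact 95% interval. No molecular identifiers are mentioned, so intervals cover counting error only. A count of 0 allows up to 3 counts, or 0.0951 to 0.138 CPM by library. Replicates are numbered in record order.

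The 61 genes, the pairs, the lists and the genes named were chosen with earlier results of these data known. By rule, per-library values were given for up to 14 ligands and 10 receptors with the smallest p and for textbook partners. Gene positions are from GENCODE M21 (GRCm38), which all 61 genes matched. Values of 1 gene counted in the totals are not reported here, and the pairs and clusters leave it out. A promoter window was used where its start lay within 1000 bases of the annotated gene on its strand, which left out Ccl21b. Windows were not used for Ccl11, Ccl2, Ccl24, Ccl26, Ccl4, Ccl5, Ccl7, Cxcl16, Cxcl17, Cxcl5, Ccr10, Ccr7 and Cxcr5. Alternatives were library totals, upper-quartile or median-ratio factors, no filter, a filter of 1 CPM throughout a group, DESeq2 1.42.0, voom with quality weights, limma 3.58.1 on log2(FPKM + 1), filtered or not, and on log2(FPKM + 0.1), each library left out, and both libraries numbered 3 left out or given a covariate.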

Additional observations from a re-analysis of the deposited data

How the results depend on the processing

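The number of chemokine genes called was 34, and 29 to 39 over the 18 alternatives; ligands stood at 22 (19 to 26) and receptors at 12 (8 to 14). Of the 34 genes that rose, 31 kept their direction and their call in every alternative in which they were tested, and the exceptions were Ackr3, Ccr9 and Xcl1. Calls in the lower direction, none in the main analysis, reached at most 2 (Cxcl12, Ccl28 or Ccrl2). No paired analysis was possible because the replicate numbers follow the order of the records and pair nothing. Over all genes, 5936 calls became 9042 with voom, 9096 without both libraries numbered 3 and 9115 with a covariate for them, and 4518 to 8142 when single libraries were left out; the cause was not tested.

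Direction turned only for uncalled genes near 0. Ccl21a (0.01) was -0.031 with DESeq2, -0.029 with median-ratio factors and -0.077 to 0.31 without single libraries. Ccl21b (-0.05) was 0.051 with upper-quartile factors, 0.37 with library totals, 0.015 without a filter, 0.34 and 0.40 with limma at pseudocounts of 1 and 0.1, 0.34 without its filter, 0.21 with voom, 0.19 without both libraries numbered 3, and -0.19 to 0.29 without single libraries. Ccl25 (-0.13) was 0.29 with library totals, 0.20 and 0.25 with limma at those pseudocounts, 0.20 without its filter, 0.037 without both libraries numbered 3 and -0.17 to 0.073 without single libraries. Ccl27a (-0.15) was 0.26 with library totals, 0.22 and 0.25 with limma, and 0.22 without its filter. Depth limits the 16 untested genes, none of which passed 16 counts in any library.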

Other observations

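Attractants outside the chemokine family, and chemokine-like genes with other symbols, moved in the same libraries. Of 28 tested genes in this list, 19 rose, 2 fell and 7 were not called, beside 22.4% higher and 18.7% lower over all genes tested. Their median log2 fold change was 1.60, beside 0.05 for all genes tested. The platelet chemokine Pf4, which macrophages also make, had 8.05 ± 1.16 CPM in Wnt1 kidneys and 0.755 ± 0.158 CPM in control kidneys (3.41 ± 0.25; edgeR adjusted p = 6.88e-05), while the other platelet chemokine, Ppbp, averaged 0.801 CPM in Wnt1 kidneys and 0.375 CPM in control kidneys and was not called (adjusted p = 0.325). Receptors for complement fragments rose, C5ar1 by 3.32 ± 0.21 (edgeR adjusted p = 3.83e-05) and C3ar1 by 3.26 ± 0.28 (0.000114), as did the formyl peptide receptor Fpr1, with 1.34 ± 0.253 CPM in Wnt1 kidneys and 0.0305 ± 0.0265 CPM in control kidneys. Chemerin, Rarres2, and its receptor Cmklr1 rose by 0.93 and 0.92 (edgeR adjusted p = 0.0208 and 0.00302). The genes that fell were Mif, a cytokine that also binds Cxcr2 and Cxcr4 (-0.62 ± 0.18; edgeR adjusted p = 0.0244), and Cmtm6 (-0.85 ± 0.16; 0.00446).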
